A study of Mus musculus with 15 samples.

Results

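The comparison described here set mouse tubule-like cells dispensed by an inkjet bioprinter into fibrin and collagen I, called printed cultures, against the same cells cast by hand in fibrin alone. It used 6 of the study's 15 libraries, 3 printed and 3 fibrin, through the authors' deposited tables of each condition against a common set of 3 libraries from flat (2D) culture. A gene was included where its base mean, the mean of normalized read counts over the 6 libraries of a table, was 10 or more in both tables, which held for 13830 of 27179 genes. At that edge, Snord71 and Thpo were just inside, with base means of 10.002 and 10.005 in the authors' deposited fibrin table, and Gm4876 and Snora2b just outside, both at 9.99 there. For each gene, the log2 fold change of fibrin over 2D was subtracted from that of the printed cultures over 2D. A positive difference means a higher level in printed cultures, and each number after ± is a standard error.

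All groups were induced renal tubular epithelial cells (iRECs), fibroblasts reprogrammed towards tubule epithelium by introduced transcription factors, grown in Renal Epithelial Growth Medium (REGM) and harvested at day 7. The printed group is labelled as inkjet-bioprinted cells in fibrin and collagen I with guided growth. The fibrin group is labelled as manually dispensed cells in fibrin that assembled by themselves, and the 2D group as manually dispensed cells with no gel. Every group had 1 culture each at passages 35, 48 and 53, started in parallel from a common pool. The cultures came from 1 line, so p-values measure the spread between these cultures. Dispensing method, added collagen I and guided growth changed together between the groups and cannot be told apart. In bulk RNA, fewer cells of a type and less RNA per cell cannot be told apart either.

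Cells sense oxygen through prolyl hydroxylases, which mark hypoxia-inducible factor (HIF) for destruction. When oxygen falls, HIF persists and raises genes for glucose uptake, glycolysis, mitophagy, blood vessel growth and collagen hydroxylation. In another program, the acute phase response, inflammatory cytokines acting through NF-kB, STAT3 and C/EBP factors raise secreted defence proteins such as complement, ceruloplasmin and lipopolysaccharide-binding protein, mostly in liver but also in injured tubule epithelium.

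Single libraries have no value in the tables, so sequencing depth per library cannot be given and values cannot be shown by culture. In units of 1e6 normalized reads, base means summed to 45.4 in the authors' deposited printed table and 43.1 in their deposited fibrin table. The median difference over the genes tested was -0.01 and the median standard error 0.33. Epithelial markers were looked up first. The cadherin genes Cdh16 and Cdh1 had base means of 64782 and 7298 in the authors' deposited printed table. In the deposited fibrin table they had 47158 and 5632. Epcam, Krt18, Krt8 and Pax8 were also present in both tables. Each base mean pools a gel with the flat cultures, so these levels cannot show identity in the gels alone. The authors' deposited fold changes over flat culture were 0.43 ± 0.20 for Cdh1 and 0.39 ± 0.19 for Cdh16 in printed cultures. In fibrin they were -0.12 ± 0.21 and -0.35 ± 0.20. Of 7 defining tubule markers, 0 had fallen in printed cultures by the authors' adjusted p. In fibrin 1 had fallen, Pax8 at -0.63 ± 0.19.

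Printed cultures differed from fibrin in 201 of the 13830 genes (1.45%) at a Benjamini-Hochberg adjusted p under 0.05. Of the genes tested, 121 (0.875%) were higher in printed cultures and 80 (0.578%) were lower. The smallest difference that passed was 0.94 in size, and 948 genes had an unadjusted p under 0.05. These shares over all genes are the background for the list counts given below. A short list with no call or a single call says little about that list. The sides of these differences were unlike. Among the 80 lower genes, 76 had risen in fibrin over 2D by the authors' adjusted p and 71 of these had no call in printed cultures, where the background of risen genes in the deposited fibrin table was 5.19%. Among the 121 higher genes, 71 had fallen in fibrin over 2D (background 3.11%) and 50 had risen in printed cultures (background 2.51%), with 11 in both counts. These splits use the values that chose the genes and are a description.

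**Figure D1:**
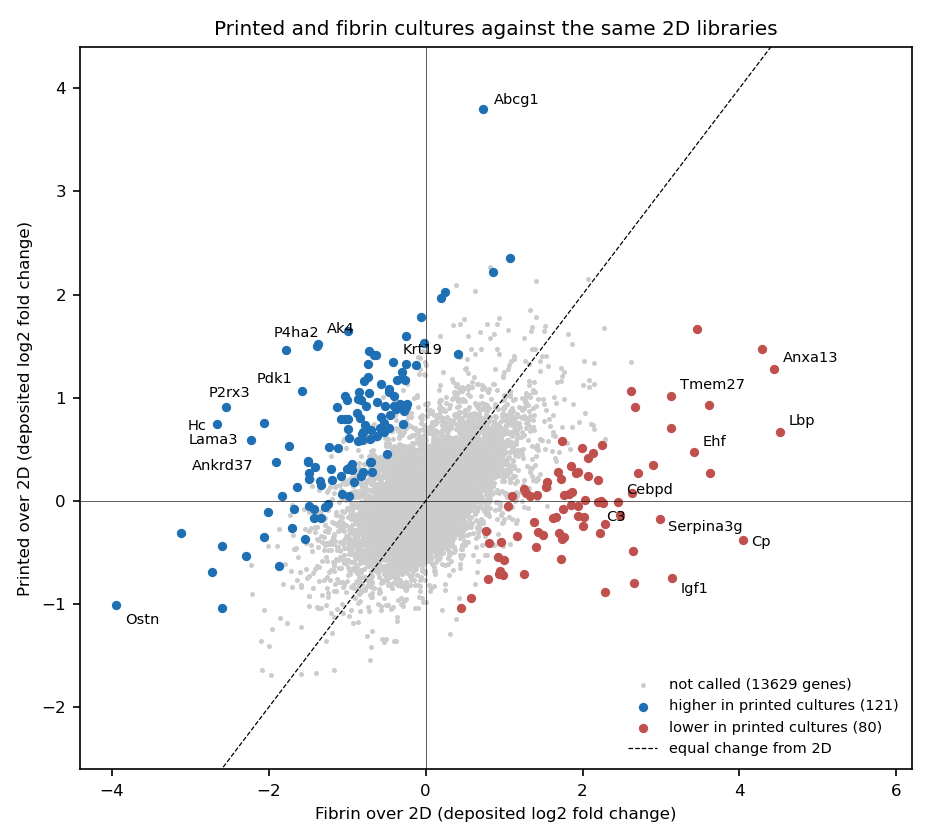
Each point is 1 of the 13830 genes tested, placed by the authors' deposited log2 fold change of fibrin over 2D (horizontal axis) and of printed cultures over 2D (vertical axis). Blue points are the 121 genes higher in printed cultures, red points the 80 lower, and the dashed line marks equal change from 2D; the red points all lie right of 0 on the fibrin axis.

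Hypoxia-responsive genes had the most calls of any list on the higher side. Of 30 listed HIF targets tested, 16 rose in printed cultures relative to fibrin and 0 fell, and 28 of the 30 differences were positive. The median of the list was 1.21, against -0.01 over all genes. In the authors' deposited tables the list's median fold change over 2D was 0.67 in printed cultures, -0.57 in fibrin -0.77 in hand-cast collagen I and -0.45 in Matrigel, which are compared with the same 2D libraries. By these medians the printed cultures lay above 2D and the other gels below it. Member by member it was less uniform. By the authors' adjusted p, 9 of the 30 had risen over 2D in printed cultures (background 2.51%) and 0 had fallen. In fibrin 12 had fallen (background 3.11%) and 0 had risen.

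P4ha2, a subunit of the prolyl hydroxylase that stabilizes collagen, differed most of the list, by 3.24 ± 0.42 (adjusted p = 1.6e-11). Its log2 fold change over 2D was 1.46 ± 0.30 in printed cultures, -1.78 ± 0.29 in fibrin and -3.94 ± 0.36 in collagen I in the authors' deposited tables. Other members of the collagen hydroxylases were higher too: P4ha1 by 1.31 ± 0.31, and the lysyl hydroxylases Plod2 by 1.39 ± 0.34 and Plod1 by 1.20 ± 0.30. These 4 genes were the only ones called among 19 collagen modifying enzymes, whose median difference was -0.03, so the list as a whole did not shift with them.

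Metabolic HIF targets followed. Ak4, a mitochondrial adenylate kinase, differed by 2.89 ± 0.38, and Pdk1, the kinase that keeps pyruvate out of the mitochondria, by 2.64 ± 0.37. Pdk1 went in opposite directions from 2D, at 1.07 ± 0.29 in printed cultures and -1.57 ± 0.22 in fibrin in the authors' deposited tables. Bnip3, a mitophagy receptor, was higher by 2.05 ± 0.37, Ero1l, an endoplasmic reticulum oxidase, by 1.98 ± 0.36, and the glucose transporter Slc2a1 by 1.58 ± 0.31. Bnip3 and Slc2a1 had base means of 16211 and 20756 in the authors' deposited printed table against 6520 and 9849 in the deposited fibrin table.

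Signalling and feedback members of the list were part of the group. The secreted peptide adrenomedullin (Adm) differed by 2.27 ± 0.41 and the angiogenic factor Vegfa by 1.46 ± 0.31. Genes for the oxygen sensors themselves, Egln3 at 1.55 ± 0.42 and Egln1 at 1.23 ± 0.32, were higher, as were the Myc antagonist Mxi1 at 1.51 ± 0.37 and the stress gene Ndrg1 at 1.29 ± 0.36. Ankrd37, an ankyrin repeat gene, differed by 2.29 ± 0.36, but its adjusted p was 0.10 once the shrinkage of the fold changes was undone. Among listed targets that did not pass, Higd1a had a difference of 0.83 ± 0.29 (adjusted p = 0.15) and Bhlhe40 0.43 ± 0.31. Differences of 2 listed targets were negative, the lowest at -0.35, and did not pass either.

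**Figure D2:**
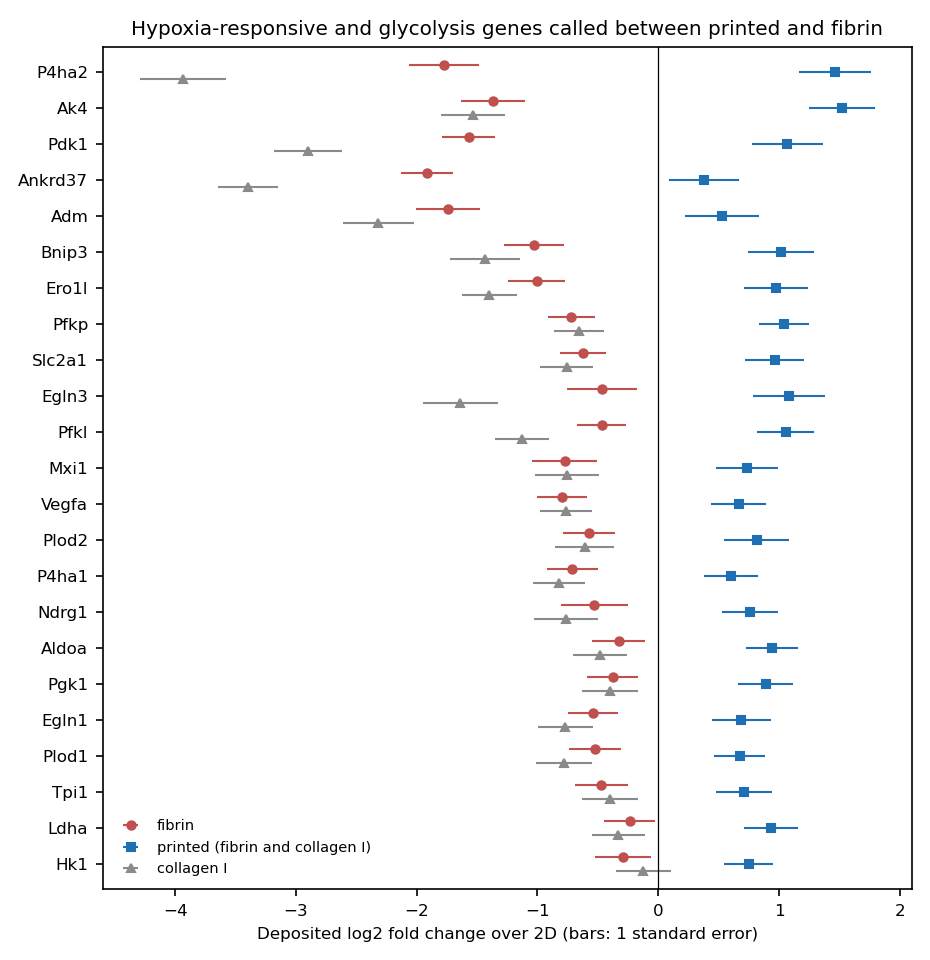
Horizontal axis: the authors' deposited log2 fold change over 2D with a bar of 1 standard error, for each HIF target, collagen hydroxylase or glycolysis gene that passed the test between printed cultures and fibrin. Printed cultures (blue squares) lie right of 0 in every row and fibrin (red circles) left of it, while collagen I (grey triangles) is shown for comparison and lies left of 0 in every row.

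Of the 19 glycolysis enzymes and lactate carriers tested, 7 rose and 0 fell, with a median difference of 0.91. The phosphofructokinases Pfkp and Pfkl, which control entry into glycolysis, differed by 1.76 ± 0.28 and 1.52 ± 0.31. Aldoa (1.27 ± 0.31), Pgk1 (1.27 ± 0.31), Tpi1 (1.18 ± 0.32) and Ldha (1.17 ± 0.31), enzymes of the lower pathway and of lactate production, also passed. Ldha had a base mean of 71000 in the authors' deposited printed table and 40492 in the deposited fibrin table. Hexokinase Hk1 passed narrowly at 1.04 ± 0.31 (adjusted p = 0.049), and its adjusted p was 0.056 with shrinkage undone. The heart-type lactate dehydrogenase subunit Ldhb had a difference of -1.17 ± 0.38 that did not pass (adjusted p = 0.11). In the opposite direction to glycolysis, all 32 tested genes of mitochondrial respiration had negative differences, with a median of -0.30, but 0 of them passed and 2 had an unadjusted p under 0.05.

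Promoters of the HIF targets were searched for ACGTG, the core of the HIF response element, on both strands, since the members moved together. Windows ran from 250 bases before to 50 after each start, from RefSeq on GRCm38.p6. The letters were found in 20 of 36 windows of 25 HIF list genes (55.6%) and in 14 of 30 windows of the glycolysis genes (46.7%), compared with 25.01% of the windows of tested genes and 19.6% of all 32851 windows. The list was drawn from known HIF targets. Over all genes called, the share was 36.9% of 122 windows on the higher side and 13.2% of 76 on the lower side. The 121 genes called higher include 23 members of the HIF and glycolysis lists, so their share is not separate from those above. The share without these members was not taken. ACGTG overlaps the E-box CACGTG, which other factors bind, and a match is not a measured site. The windows of P4ha2 (chr11:54100674-54100973, plus strand), Ankrd37 (chr8:45999801-46000100, minus strand), Bnip3 (chr7:138909457-138909756, minus strand) and Slc2a1 (chr4:119108495-119108794, plus strand) are printed as called members whose windows hold the letters; others did not, as given after them. Capitals mark ACGTG on the strand shown or its reverse complement; in Bnip3 both fall on 1 palindromic E-box.
P4ha2: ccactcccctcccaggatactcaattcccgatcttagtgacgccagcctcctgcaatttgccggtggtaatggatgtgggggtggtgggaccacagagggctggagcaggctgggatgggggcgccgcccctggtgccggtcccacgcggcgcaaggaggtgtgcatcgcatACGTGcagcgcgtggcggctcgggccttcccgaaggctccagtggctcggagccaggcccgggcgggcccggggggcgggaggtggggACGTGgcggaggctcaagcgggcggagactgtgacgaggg
Ankrd37: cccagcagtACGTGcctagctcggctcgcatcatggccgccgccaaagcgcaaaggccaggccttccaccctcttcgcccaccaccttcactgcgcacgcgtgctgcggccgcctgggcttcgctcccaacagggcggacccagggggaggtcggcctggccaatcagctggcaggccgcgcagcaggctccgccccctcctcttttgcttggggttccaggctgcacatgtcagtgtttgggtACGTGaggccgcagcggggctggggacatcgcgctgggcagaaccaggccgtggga
Bnip3: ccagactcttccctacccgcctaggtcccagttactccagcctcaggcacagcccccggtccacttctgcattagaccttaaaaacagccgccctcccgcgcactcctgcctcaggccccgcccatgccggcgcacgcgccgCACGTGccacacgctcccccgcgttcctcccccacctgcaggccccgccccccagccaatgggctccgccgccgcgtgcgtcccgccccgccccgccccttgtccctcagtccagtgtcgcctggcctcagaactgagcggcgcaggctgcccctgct
Slc2a1: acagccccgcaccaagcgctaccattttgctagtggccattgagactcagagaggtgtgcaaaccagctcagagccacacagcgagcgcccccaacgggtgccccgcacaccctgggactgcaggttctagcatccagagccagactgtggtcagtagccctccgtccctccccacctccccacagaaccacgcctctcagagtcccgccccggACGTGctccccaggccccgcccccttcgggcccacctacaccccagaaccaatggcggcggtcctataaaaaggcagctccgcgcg
Pdk1 held 0 matches in either of its windows, Pfkp 0 in its window and Ak4 0 in 3 of 4 windows, so the letters within this distance did not mark every gene that rose.

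Outside these lists, the gene with the largest positive difference was P2rx3, an ATP-gated ion channel best known from sensory neurons, at 3.46 ± 0.37 (gene 228139, chromosome 2, 84996549 to 85037108). Its fold changes in the authors' deposited tables were 0.91 ± 0.27 in printed cultures, -2.55 ± 0.25 in fibrin, -2.50 ± 0.33 in collagen I and 1.51 ± 0.18 in Matrigel, so Matrigel stood above 2D as well. The laminin chain gene Lama3, part of the laminin that anchors epithelia, was higher by 2.81 ± 0.37, with a base mean of 729 in the authors' deposited printed table and 290 in the deposited fibrin table. Lama3 was at 0.59 ± 0.26 over 2D in printed cultures, where the authors' deposited table gives an adjusted p of 0.30, and at -2.22 ± 0.26 in fibrin in their deposited table. Ostn, a secreted peptide of bone and muscle, differed by 2.93 ± 0.50, with -1.01 ± 0.32 in printed cultures and -3.94 ± 0.38 in fibrin over 2D in the authors' deposited tables; the levels implied by the base means gave a smaller difference, 1.37. Trim40, a ubiquitin ligase gene of the gut, differed by 1.94 ± 0.43.

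Acute phase and complement genes had the most calls of any list on the lower side. Of the 36 listed, 22 were abundant enough to test, of which 9 fell and 1 rose in printed cultures relative to fibrin, with a median difference of -0.87. The median fold change over 2D was 0.01 in printed cultures, 1.09 in fibrin, -0.25 in collagen I and 0.00 in Matrigel in the authors' deposited tables. By these medians hand-cast fibrin stood above 2D, and the printed cultures, which also contain fibrin, were level with it.

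Ceruloplasmin (Cp), the copper-carrying ferroxidase of plasma, had the largest difference of all genes tested, -4.43 ± 0.42 (adjusted p = 1.7e-21), a 21.5-fold lower level on the shrunken scale. Its base mean was 16.3 in the authors' deposited printed table and 395 in the deposited fibrin table. Lbp, the lipopolysaccharide-binding protein, differed by -3.85 ± 0.41 (adjusted p = 6.9e-17), with fold changes over 2D of 0.67 ± 0.31 in printed cultures and 4.52 ± 0.28 in fibrin in the authors' deposited tables. The central complement gene C3 fell by 2.21 on the log2 scale with a standard error of 0.44. Its deposited base means were 9701 in the authors' printed table and 34007 in their fibrin table. C3 stayed level with 2D in printed cultures, at -0.01 ± 0.30, and was at 2.20 ± 0.32 in fibrin in the authors' deposited tables.

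The classical complement proteases moved with C3: C1s1 differed by -1.75 ± 0.37 and C1ra by -1.59 ± 0.32. Serpina3g, a protease inhibitor of the antichymotrypsin family, was lower by 3.16 on the log2 scale (-3.16 ± 0.46), and the family's close copies could share reads. The regulator Serping1 (-1.65 ± 0.48) and the fibrinogen chain Fga (-1.64 ± 0.47) were also called. With shrinkage undone both lost the call, with adjusted p of 0.34 for Serping1 and 0.060 for Fga. Complement component Hc, also known as C5, was the exception to the direction: it was higher by 3.41 ± 0.45, at 0.75 ± 0.32 in printed cultures and -2.66 ± 0.32 in fibrin over 2D in the authors' deposited tables, and by 5.15 with shrinkage undone.

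**Figure D3:**
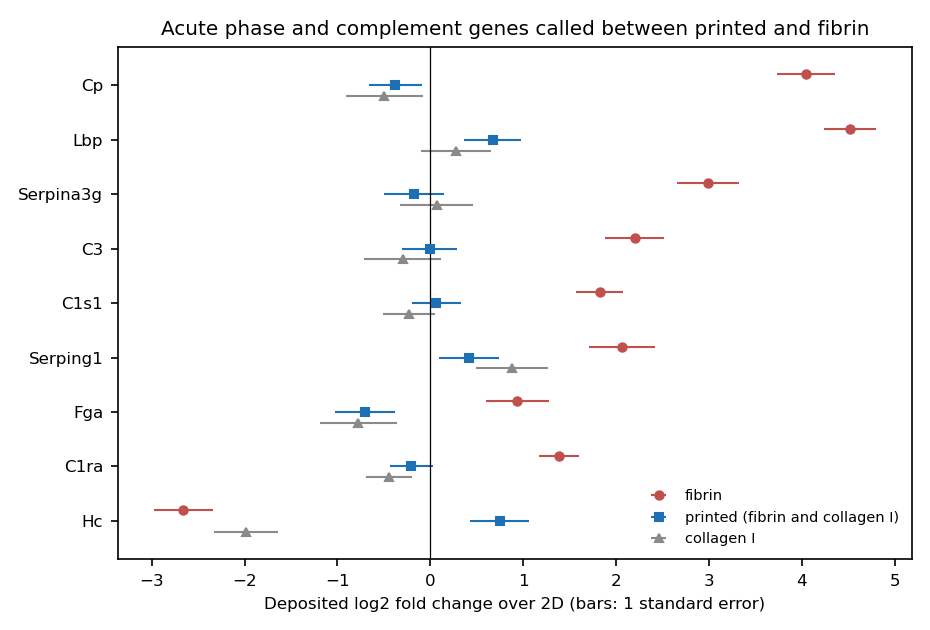
Horizontal axis: the authors' deposited log2 fold change over 2D with a bar of 1 standard error, for 9 acute phase and complement genes that passed between printed cultures and fibrin. Fibrin (red circles) lies right of 0 for 8 genes and left of it for Hc, whereas printed cultures (blue squares) lie between -0.70 and 0.75.

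Some genes with known roles in this response were called lower. Cebpd, a C/EBP factor that acute phase signals induce, differed by -2.46 ± 0.44, and its base mean was 1100 in the authors' deposited printed table against 4748 in the deposited fibrin table. Zc3h12a, the RNase that limits cytokine transcripts, differed by -2.01 ± 0.47, and the lipopolysaccharide co-receptor Cd14 by -1.40 ± 0.32. Others, looked up after these values were seen, were not called: Cebpb, another C/EBP factor, was at 0.07 in printed cultures and 0.12 in fibrin over 2D in the authors' deposited tables, and Nfkbiz, a co-factor of NF-kB, had a difference of -1.09 ± 0.39 (adjusted p = 0.19). Cytokine and NF-kB target genes as a list were less clear. Of 30 tested, 1 fell and 0 rose, while 27 differences were negative and the median was -0.45. The one called, the chemokine Cx3cl1, differed by -1.28 ± 0.38 (adjusted p = 0.047) and lost the call with a base mean of 100 or more, with no floor and with shrinkage undone.

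Several inflammatory genes had far apart base means and no call. A gap of at least 4-fold between the deposited base means was required, with the larger one at least 100. By this rule 12 tested genes were not called, of which 10 were lower in the printed table. They were chosen after their values were seen, and genes with lower base means were left out. Lipocalin 2 (Lcn2), a secreted marker of tubule injury, had base means of 1490 and 27630 in the authors' deposited printed and fibrin tables, and a difference of -1.49 ± 0.46 (adjusted p = 0.070). Cxcl5, a neutrophil chemokine, had 3480 and 35587 in those deposited tables of the authors, with a difference of -1.12 ± 0.44 (adjusted p = 0.30). The iron reductase Steap4 had 15.0 and 1495 in the same deposited tables of the authors, but a difference of only -0.34 ± 0.26. For these genes the deposited fold changes are small beside the base means, and which fibrin cultures held the reads is not shown by the tables.

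**Figure D4:**
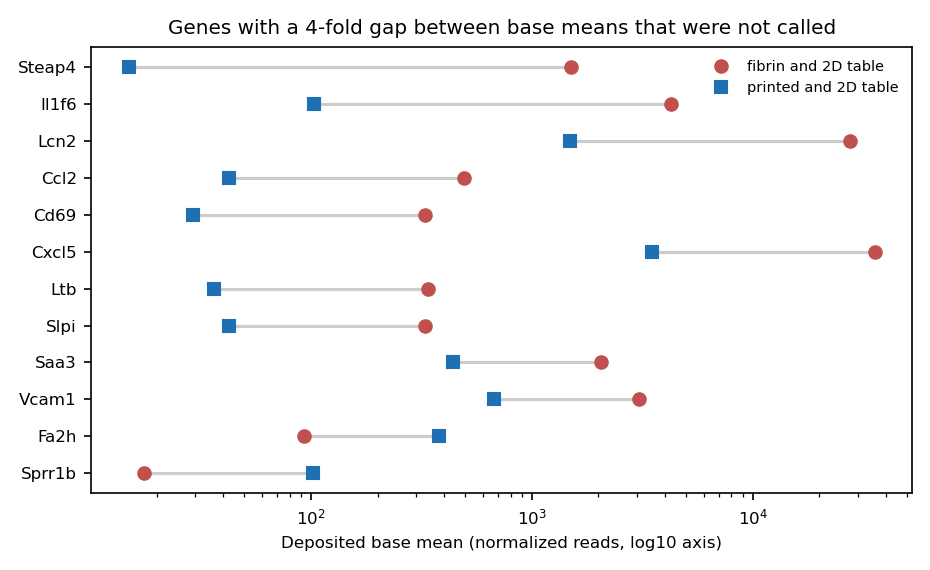
Horizontal axis (log10): the deposited base mean of 12 genes, joined by a grey line per gene. They differed at least 4-fold between the tables, with the larger base mean at least 100, without passing the test. Red circles are the fibrin and 2D table and blue squares the printed and 2D table; 10 genes, led by Steap4 and Il1f6, are higher in the fibrin table.

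Promoter windows of the acute phase list were searched for TTCNNNGAA, the palindrome bound by STAT factors, which reads the same on both strands. It was found in 4 of 18 windows (22.2%) of 14 genes, and in 15 of 76 windows (19.7%) of all genes called lower, against 6.90% of the windows of tested genes and 8.30% of all windows. A loose form of the NF-kB motif (GGG, any 5 bases, then CC, on either strand) was in 77.8% of the acute phase windows and 61.8% of those of genes called lower, against 66.8% of the windows of tested genes. The window of Serpina3g (chr12:104235897-104236196, plus strand, RefSeq, GRCm38.p6) is printed as an example from the called genes that hold the STAT palindrome, in capitals.
Serpina3g: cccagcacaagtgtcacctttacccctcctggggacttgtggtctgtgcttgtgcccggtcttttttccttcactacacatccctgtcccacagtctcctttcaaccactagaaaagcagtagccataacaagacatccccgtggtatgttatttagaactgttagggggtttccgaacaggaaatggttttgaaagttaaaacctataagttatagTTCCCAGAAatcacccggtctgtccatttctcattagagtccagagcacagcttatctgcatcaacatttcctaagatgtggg
The window of C3 held 0 matches to that palindrome, which says only that the letters are not within it.

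The other genes with the largest negative differences were of several kinds. Anxa13, an annexin of epithelial cells, differed by -3.17 ± 0.42 and was above 2D in both, at 1.28 ± 0.32 in printed cultures and 4.45 ± 0.26 in fibrin in the authors' deposited tables. Ehf, an ETS factor of epithelia, differed by -2.95 ± 0.46, from 0.47 ± 0.32 and 3.43 ± 0.34 in the same deposited tables of the authors. Prnd, a relative of the prion protein, was at -2.53 ± 0.47 and Fam20c, a kinase of the secretory pathway, at -2.24 ± 0.33. Adgra1, an adhesion receptor, was at -1.85 ± 0.41. The protocadherin gene Pcdh10 was at -2.42 ± 0.40, but it lost the call with shrinkage undone. All of these stood higher in fibrin than in 2D. For some, the authors' deposited tables show this in other gels too. In collagen I and Matrigel, Pcdh10 was at 2.92 ± 0.23 and 2.61 ± 0.22 over 2D, and Anxa13 at 1.31 ± 0.36 and 2.92 ± 0.28. Ehf was at -0.60 ± 0.39 and 0.95 ± 0.29 in the same deposited tables of the authors. Prnd, Fam20c and Adgra1 were not called above 2D in either gel.

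Tubule genes had no common direction. Of 26 proximal tubule genes tested, 3 fell (background 0.578%) and 0 rose (background 0.875%). Yet 15 of the 26 differences were positive and the median was 0.27. Tmem27 (collectrin), which carries amino acid transporters to the brush border, differed by -2.11 ± 0.37. It was above 2D in printed cultures, at 1.02 ± 0.29, and more so in fibrin, at 3.13 ± 0.23, and collagen I, at 2.87 ± 0.23, in the authors' deposited tables. Kap, whose product is made by the proximal tubule under androgens, was called at -1.48 ± 0.40 and Acsm2, a mitochondrial acyl-CoA synthetase, at -1.36 ± 0.40, but neither held with shrinkage undone, where Kap had an adjusted p of 0.29, and Acsm2 was also lost with a higher floor of 100 and with no floor. Of 12 tested genes of the later nephron segments, from the loop of Henle to the collecting duct, 1 rose, Krt19, and 0 fell.

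The introduced factors Emx2, Hnf4a and Pax8 did not pass. Differences were 0.28 ± 0.28 for Emx2 (95% interval -0.28 to 0.83), 0.62 ± 0.27 for Hnf4a (0.08 to 1.15) and 0.69 ± 0.27 for Pax8, with an adjusted p of 0.31 for Pax8. Reads of introduced and endogenous copies were not separated. Of 43 genes of the primary cilium and cystic kidney disease, 0 passed in either direction (background 1.45%), and 1 had an unadjusted p under 0.05. Pkhd1, the gene of recessive polycystic disease, had a difference of 0.79 ± 0.28 (95% interval 0.23 to 1.34, adjusted p = 0.20). Pkd1, the gene of dominant polycystic disease, had 0.55 ± 0.30 (-0.03 to 1.13).

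Among 20 keratin and cornified envelope genes tested, 3 rose (background 0.875%) and 0 fell (background 0.578%). Of the differences, 15 were positive and 5 negative, with a median of 0.60. The calls were 1 keratin, 1 transcription factor and 1 envelope gene. Krt19, a keratin of simple ducts, differed by 1.77 ± 0.29, with base means of 30358 in the authors' deposited printed table and 13210 in the deposited fibrin table. Klf4, a factor of epithelial differentiation, differed by 1.51 ± 0.30 and the envelope precursor Sprr1a by 1.44 ± 0.37. The close copy Sprr1b had 1.71 ± 0.51 (adjusted p = 0.051), and reads could be shared between the copies. Krt8, a partner of simple epithelial keratins, had 1.24 ± 0.37 and did not pass (adjusted p = 0.060). On the other side, Scel, an envelope-associated gene, had -1.27 ± 0.46 (adjusted p = 0.21). Of 43 junction and polarity genes, 1 rose, the claudin Cldn1 at 1.49 ± 0.35, and 1 fell, Ehf.

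Matrix genes changed singly. Of 24 basement membrane genes, Lama3 rose and Lama1, an embryonic laminin chain, fell by 1.62 on the log2 scale (-1.62 ± 0.36). Lama5, the widespread laminin alpha chain of mature epithelial basement membranes, had 0.92 ± 0.28 (adjusted p = 0.064). Among 12 interstitial collagen genes, 1 fell, Col14a1 at -2.02 ± 0.48 (-3.19 by the levels implied by the base means), and 0 rose. Mmp28, an epithelial metalloprotease, was the only call among 21 proteases and inhibitors at 1.24 ± 0.34, and it was lost with shrinkage undone. No gene was called among 22 integrins and other matrix receptors, 25 actin and SRF targets or 20 YAP/TAZ targets (background 1.45%). Their medians were 0.18, -0.03 and 0.17, and 3, 1 and 1 of them had an unadjusted p under 0.05. Of 24 TGF-beta genes, the BMP target Id1 fell, at -1.16 ± 0.33, with an adjusted p of 0.14 once shrinkage was undone. Fbln2, a matrix fibulin, was the 1 riser of 21 mesenchymal genes, at 2.16 ± 0.50.

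Proliferation and stress lists held 0 calls. Among 34 replication genes, 33 differences were negative, with a median of -0.41, and among 30 mitotic genes 29 were negative, with a median of -0.27; 0 of either list had an unadjusted p under 0.05. In the authors' deposited tables the replication list had a median of 0.66 over 2D in printed cultures and 1.04 in fibrin, with 13 and 30 genes risen (backgrounds 2.51% and 5.19%). For single genes such as Mcm4, a helicase subunit, the difference was -0.49 ± 0.29 and did not pass. No call was made either among 25 cholesterol synthesis genes, 19 of fatty acid oxidation, 31 of unfolded protein and amino acid stress, 18 heat shock genes, 22 p53 targets, 31 interferon genes or 30 immediate early genes. Those lists had medians from -0.18 to 0.22, and unadjusted p under 0.05 in 1, 1, 4, 2, 1, 5 and 4 genes. Over all genes tested, 1.45% were called and 948 of 13830 had an unadjusted p under 0.05. With so few calls over all genes, no call in lists of this size says little about them.

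Smaller lists had single calls. Acacb, which makes malonyl-CoA at the mitochondrial surface, rose among 16 fatty acid synthesis genes (1.53 ± 0.36). Igfbp7, a secreted marker of tubule stress, fell among 23 injury genes (-1.51 ± 0.32). Gsta3, a glutathione transferase, fell among 25 NRF2 genes (-2.08 ± 0.44), and was lost with shrinkage undone. Of 14 drug-conjugating enzymes, Ugt1a1 rose (1.85 ± 0.50, and 2.93 with shrinkage undone) and Ugt1a7c fell (-1.79 ± 0.38, adjusted p = 0.20 with shrinkage undone). These glucuronosyltransferases share exons, so their reads are not cleanly separated. Among 21 genes of plasminogen activation and coagulation, Fga was the only call.

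**Figure D5:**
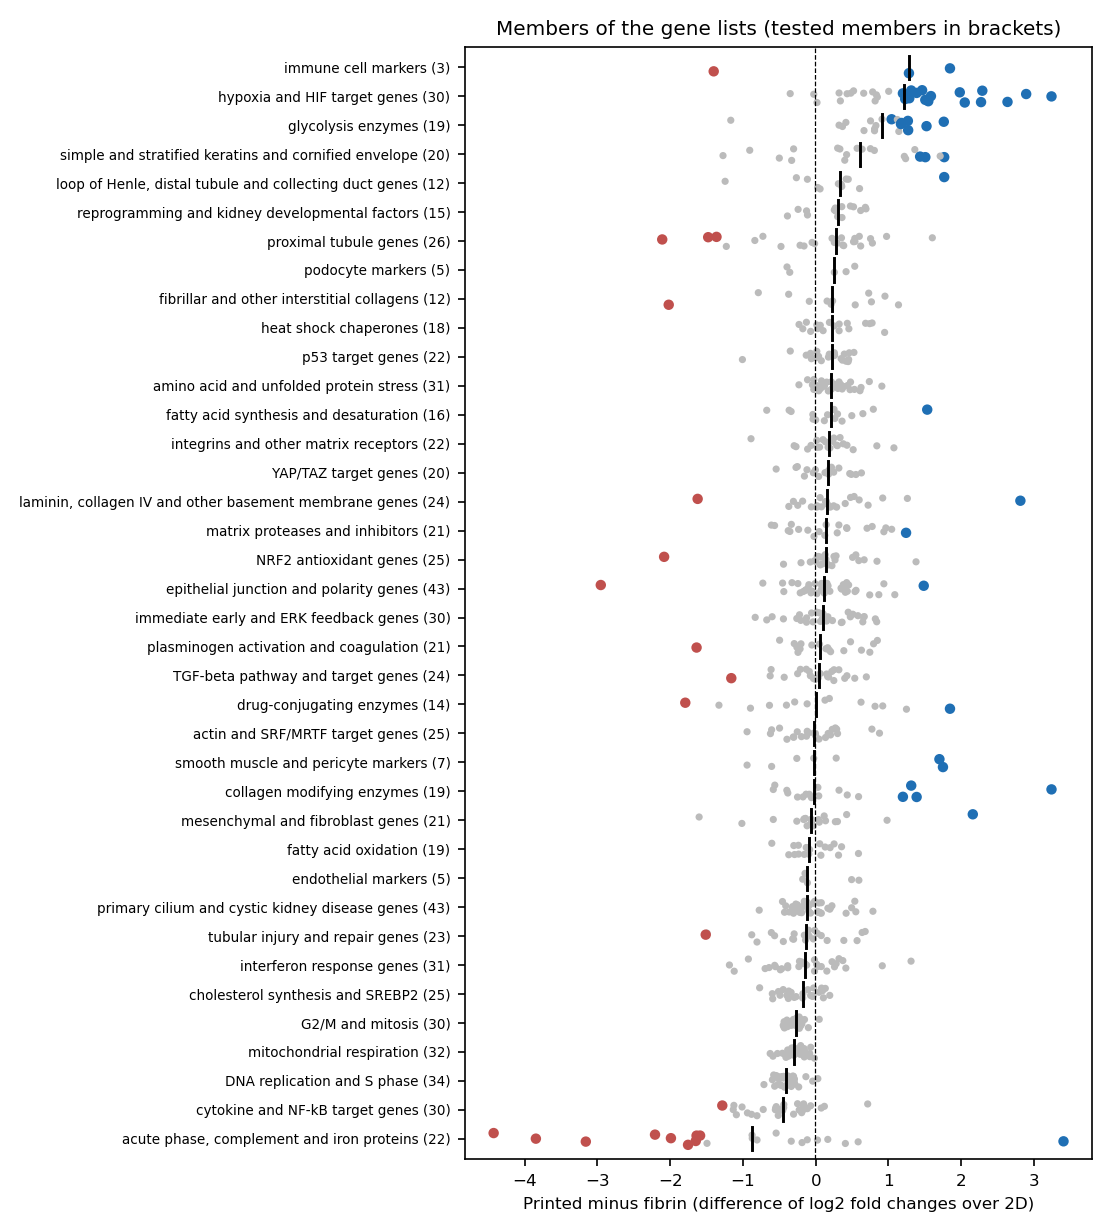
Each point is a tested member of a gene list (number tested in brackets), placed by its difference between printed cultures and fibrin on the log2 scale (horizontal axis). Blue and red points passed the test, higher and lower in printed cultures, grey points did not, and black bars mark list medians; HIF targets lie furthest right among the lists of more than 3 genes and acute phase genes furthest left.

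Markers of other cell types were present in part. For immune cells, 3 of 14 markers were tested: Cd68 and Csf1r were higher in printed cultures, by 1.85 ± 0.36 and 1.28 ± 0.32, and Cd14 was lower. The defining immune genes were split. In base mean in the authors' deposited printed and fibrin tables, Cd3e and Tyrobp were at 0 and Ptprc at 1.33 and 3.02. Adgre1 was at 0.58 and 0.26 in the same deposited tables of the authors, but Cd68 was at 944 and 359. For smooth muscle and pericytes, 7 of 12 were tested and Notch3 (1.75 ± 0.37) and Mcam (1.70 ± 0.35) rose. Their defining genes Rgs5, Cnn1, Myh11, Des and Notch3 had base means of 0, 1.88, 13.8, 149 and 1029 in the authors' deposited printed table. In the authors' deposited fibrin table they had 0, 2.03, 5.76, 150 and 514. Of 12 endothelial and 10 podocyte markers, 5 each were tested and 0 passed, with 0 at an unadjusted p under 0.05. Some of the tested markers were abundant, such as the intermediate filament gene Nes at 16860 and the smooth muscle gene Smtn at 13503 in base mean in the authors' deposited printed table, while Nphs1 was at 0. Their part in the results was not tested.

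For scale, the same test called 124 of 13787 genes (0.899%) between printed cultures and hand-cast collagen I, 116 higher (0.841%) and 8 lower (0.058%) in printed cultures. Between collagen I and fibrin it called 74 of 13799 (0.536%), 7 higher (0.0507%) and 67 lower (0.486%) in collagen I. All 3 comparisons share the 2D libraries, and each pair of them shares a gel, so their counts are not independent. P4ha2, Pdk1 and Slc2a1 were below 2D in both single gels, at -3.94, -2.90 and -0.76 in collagen I in the authors' deposited table. C3, Lbp and Cebpd were near 2D in collagen I, at -0.30 ± 0.41, 0.27 ± 0.38 and 0.06 ± 0.33 in that deposited table of the authors, which is where printed cultures stood too for C3 and Cebpd.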

How the data were processed

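RNA of 15 libraries was sequenced, and the comparison used the authors' deposited result tables of printed cultures and of fibrin, each against 3 libraries of 2D culture, with 0 columns of values per library. The submitters' processing notes name DESeq2 1.22.1, featureCounts 1.6.3, STAR 2.6.0b-1, Trim Galore 0.4.3 and FastQC 0.72, with build mm10. Not given in the sources used here are the strand setting, the annotation and the terms of the fit. Each deposited base mean is a signal, the mean read count after scaling to library size by the authors. The authors' fold change and its standard error are log2 values that, from their pattern, were shrunken towards 0. The authors' Wald statistic is a score, their fold change over its error, and each deposited p-value is their two-sided p of it. The name of the deposited printed table mentions collagen, whereas the labels give fibrin and collagen I.

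Tables were joined on gene identifier with Python 3.11.15, pandas 2.3.3 and scipy 1.17.1. Where a gene's base mean was at least 10 in both, the difference of the log2 fold changes was divided by its combined standard error (the root of both squared errors added), giving a normal p, two-sided, that was adjusted by Benjamini-Hochberg over 13830 genes. The error of the 2D libraries enters both terms, which widens the standard error, and a normal p from 3 libraries per group rests on the spread that the authors' fit shared across genes. No model could be refitted. The test was tried on simulated data with known changes. It recovered 39 of 100 genes changed by 1 on the log2 scale and 94 of 100 changed by 2, so many smaller differences would be missed. Of 1028 entries in 38 gene lists, 1026 were found in the tables.

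The comparison, the lists and the naming rule were chosen with earlier results of these data known. Named genes were the 12 largest differences in each direction among called genes (base mean at least 100), the 3 smallest p-values of each list, the introduced factors and members behind small counts; listed HIF, glycolysis and acute phase genes that passed are also given, except that a few genes are not reported here. Lists were described by counts and medians and not tested. One alternative undid the shrinkage by the normal prior implied by the largest standard error of each table. Another took out the 2D error, assumed to be 0.5 of the summed squared errors. Others rescaled the statistic to its own middle part, centred the differences, or changed the floor or threshold. A last one took the difference from the levels implied by the base means.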

Additional observations from a re-analysis of the deposited data

How the results depend on the processing

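The counts of 121 higher and 80 lower genes in printed cultures than in fibrin kept within 1.5 times under undone shrinkage (96 and 54), a statistic rescaled to its own spread (180 and 94), centring, no base mean floor and a difference of at least 1. The error of the shared 2D libraries was then taken out, assumed to be 0.5 of the summed squared errors for every gene. That share was not measured. The counts became 485 and 268, with 708 genes between printed cultures and collagen I and 264 between collagen I and fibrin. Of the 78 genes chosen by the naming rule and not called, 36 passed under that alternative. The rule takes the smallest p-values of each list, so this share does not describe uncalled genes in general. A missing call in the main test is still weak evidence of no difference. The rescaled statistic gave 509 between collagen I and fibrin. A base mean of 100 or more left 41 lower genes and 45 between collagen I and fibrin, where fewer genes were tested. An adjusted p under 0.01 gave 68 higher, 53 lower and 81 between printed cultures and collagen I. The levels implied by the base means, a value with no test, moved 25 of the 53 called genes chosen by the naming rule and 8 of the 78 not called by more than their standard error, among them Lcn2 (-5.73), Ostn (1.37) and Pcdh10 (-0.83). None of those 53 called genes changed direction under undone shrinkage or the levels implied by the base means. Centring took off the median of -0.01, while the smallest called difference was 0.94 in size, so it could not alter the direction of a call. The other alternatives leave the difference itself unchanged, so they could not alter its direction either. With shrinkage undone, 92 of the 121 and 54 of the 80 calls were kept, and of the genes named here Ankrd37, Serping1, Hk1, Apoc1, Pcdh10, Kap, Acsm2, Cx3cl1, Fga, Gsta3, Id1, Mmp28 and Ugt1a7c lost the call; the cause was not tested. An alternative with genes lacking a p added nothing, since 0 genes above the floor of 10 lacked one. No paired analysis was possible because the tables hold no values per library, and no culture could be left out for the same reason. Depth per library is unknown, so precision rests on the deposited standard errors.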

Other observations

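The groups given here were picked from the called genes with their values in view and have no test as groups. On the lower side, 4 of 11 Serpina3 genes in the tables could be tested, and all 4 of those were called: Serpina3h at -3.44 ± 0.44, Serpina3i at -3.17 ± 0.44, Serpina3g at -3.16 ± 0.46 and Serpina3f at -2.61 ± 0.47 (-3.97 with shrinkage undone). They are near-identical protease inhibitor genes, so how reads were divided among them is uncertain. Igf1, the insulin-like growth factor, differed by -3.89 ± 0.42, with a base mean of 24.5 in the authors' deposited printed table and 327 in the deposited fibrin table; with shrinkage undone the difference was -6.45 ± 1.09. The inflammatory caspase genes Casp1 (-3.36 ± 0.44) and Casp4 (-2.12 ± 0.49) were lower as well (Casp4 at -3.20 with shrinkage undone), with Casp1 at 0.27 in printed cultures and 3.63 in fibrin over 2D in the authors' deposited tables. Gsdmd, the pore-forming protein that these caspases cut, had -0.15 ± 0.44 and was not called.

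On the higher side, of 11 genes of sterol export and lipoprotein handling looked up and tested, 4 were called, all higher in printed cultures. Abcg1, a cholesterol exporter, differed by 3.07 ± 0.45, and its base mean was 636 in the authors' deposited printed table against 56.9 in the deposited fibrin table. The exporter Abca1 was higher by 1.63 ± 0.30 and lipoprotein lipase (Lpl) by 1.80 ± 0.42. Apoc1, an apolipoprotein, was called at 1.84 ± 0.51, with an adjusted p of 0.17 once shrinkage was undone. The other 7 were not called, including Srebf1 at 0.36 ± 0.27, Mylip at 0.54 ± 0.31 and Apoe at 0.78 ± 0.40, and, in the opposite direction, Pltp at -0.65 ± 0.37 and Lpcat3 at -0.11 ± 0.28. HIF-associated genes outside the list were higher too: Mgarp, a mitochondrial transport protein, by 2.88 ± 0.48, the placental growth factor gene Pgf by 1.90 ± 0.32 and Fam162a by 1.58 ± 0.33.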
